A study of Mus musculus with 16 samples.

Results

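The Sprouty proteins (Spry1 to Spry4) and the related Spred proteins (Spred1 to Spred3) are feedback inhibitors of receptor tyrosine kinase signalling. The 7 genes were chosen by name, and 6 of them, 3 Sprouty and 3 Spred genes, had a row among the 55385 genes of the tables. Spry3 was not analysed here. The study asked which genes of hippocampal neurons depend on the DNA methyltransferase Dnmt3a1 at rest and during neuronal activity. RNA was sequenced from 16 libraries of mouse primary hippocampal cultures, prepared from newborn C57Bl/6N pups, 4 libraries in each of 4 groups. All cultures carried a recombinant adeno-associated virus, in which the U6 promoter drove a short hairpin RNA (shRNA), so uninfected cultures were not part of the comparison. Control-shRNA baseline and Dnmt3a1-shRNA baseline cultures were left unstimulated. Control-shRNA bicuculline and Dnmt3a1-shRNA bicuculline cultures received bicuculline, a blocker of inhibitory GABA-A receptors that makes the network fire in bursts, for 4 h. A single hairpin against Dnmt3a1 was used for sequencing, and the 4 libraries of a group came from independent neuronal preparations.

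Receptor tyrosine kinases such as the fibroblast growth factor and neurotrophin receptors switch on Ras, which passes the signal through Raf and MEK to the kinase ERK. ERK in turn raises transcription of its own inhibitors. Sprouty proteins bind adaptors such as Grb2 and dampen the step from receptor to Ras and Raf, whereas Spred proteins recruit neurofibromin (Nf1), which inactivates Ras. In neurons the same pathway links synaptic activity to gene transcription.

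RefSeq promoter windows, spanning 250 bases before to 50 bases after the annotated start (build GRCm38.p6), were found for 5 of the 7 genes. The upstream 250 bases are shown for Spry2, the member with the largest bicuculline response, and for Spred3, the member whose bicuculline response did not pass the test. For Spred2, the 1 member with a motif match, the first 213 of them are shown, and the capitals mark a short form of the cAMP response element (CRE), read on the opposite strand.
Spry2, chr14:105896820-105897069, minus strand: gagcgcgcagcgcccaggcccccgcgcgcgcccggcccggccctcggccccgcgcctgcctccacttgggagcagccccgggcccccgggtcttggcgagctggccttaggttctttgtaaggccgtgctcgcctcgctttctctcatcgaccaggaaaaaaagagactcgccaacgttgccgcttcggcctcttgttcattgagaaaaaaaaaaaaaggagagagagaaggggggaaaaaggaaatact
Spred2, chr11:19924192-19924404, plus strand: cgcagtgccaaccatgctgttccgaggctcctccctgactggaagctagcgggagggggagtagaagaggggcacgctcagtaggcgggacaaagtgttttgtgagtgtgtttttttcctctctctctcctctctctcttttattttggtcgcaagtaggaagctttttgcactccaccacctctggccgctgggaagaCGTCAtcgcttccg
Spred3, chr7:29168648-29168897, minus strand: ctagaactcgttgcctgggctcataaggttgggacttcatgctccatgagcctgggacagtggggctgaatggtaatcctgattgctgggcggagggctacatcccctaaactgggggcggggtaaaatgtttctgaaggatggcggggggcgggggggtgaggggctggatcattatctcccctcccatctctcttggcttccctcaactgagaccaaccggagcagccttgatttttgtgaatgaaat
The letters searched on both strands were the CRE (TGACGTCA), its short form (TGACG, which also lies within the CRE), the AP-1 site (TGACTCA or TGAGTCA), the ETS site (CCGGAAGT), the EGR site (GCGTGGGCG) and the CArG box of the serum response element. In the 5 windows the 1 match was the short CRE of Spred2, from base -51 to -47 relative to the RefSeq start (chr11:19924391-19924395). A longer Spred2 transcript in GENCODE M21 starts at 19924375, so that the match lies in its first exon. The Spred3 window lies within the GENCODE gene (chr7:29158829-29170411), whose 1 coding transcript starts at 29168647. The Spred1 window ends at 117121120, before the GENCODE coding starts at 117121374 and 117121638. Which starts are used in these cultures was not tested. Of all 32851 windows of this length, 20.8% held the short CRE, 1.79% the CRE, 5.20% an AP-1 site, 3.89% the ETS site, 1.63% a CArG box and 0.612% the EGR site. The windows differed in base composition. GC content was 72.3% in Spred1, 64.3% in Spry1, 62.7% in Spry2, 57.0% in Spred2 and 55.0% in Spred3, with a median of 52.7% over all windows. The number of CpG dinucleotides was 40 in Spred1, 29 in Spry1, 28 in Spry2, 17 in Spred2 and 8 in Spred3, and the median of all windows was 7.

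The libraries held 28912697 to 29586355 estimated counts each, and 17222 genes, including all 6 members, passed the filter on low counts. Dnmt3a fell to 14.2% of its level at baseline and to 13.9% with bicuculline, and its libraries did not overlap between hairpins. Arc, Fos and Npas4, genes induced by neuronal activity, rose 49.9-fold, 84.4-fold and 160-fold with bicuculline in Control-shRNA cultures. The 8 neuronal markers summed to 4385 to 5640 TPM (abundance per transcript length, scaled to the same total in each library) per library and the 7 astrocyte markers to 192 to 449, whereas the 6 microglial markers summed to 1.84 to 6.88. Neuronal and astrocyte markers were thus both present, and microglial markers were near the limit of detection. The mitochondrial share of counts ran from 2.80% to 4.75% in Control-shRNA baseline, from 3.34% to 5.86% in Control-shRNA bicuculline, from 2.73% to 5.99% in Dnmt3a1-shRNA baseline and from 3.58% to 6.60% in Dnmt3a1-shRNA bicuculline libraries. Its mean was higher with bicuculline and with Dnmt3a1-shRNA, replicate 1 was highest and replicate 3 lowest in each group, and the part of this share in the differences between groups was not tested. In such bulk RNA, a change in the share of cells that express a gene cannot be told apart from a change in RNA per cell.

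Bicuculline raised 5 of the 6 members in Control-shRNA cultures. Spry2, Spry4, Spred2, Spry1 and Spred1 rose, with log2 fold changes from 0.64 to 2.45, while Spred3 changed by 0.23 and did not pass the test. A gene was called when edgeR's quasi-likelihood test gave a Benjamini-Hochberg adjusted p below 0.05 and the absolute log2 fold change was above 0.5. By this rule 10.8% of all tested genes were called higher and 11.1% lower. The 6 members had a median log2 fold change of 1.21, against 0.01 over all tested genes. All 4 bicuculline libraries lay above all 4 baseline libraries for the same 5 members, and 39.7% of all tested genes had no overlap between these groups in either direction.

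Spry2 (ENSMUSG00000022114.5, chr14:105891947-105896819, minus strand), the Sprouty gene best known as a brake on fibroblast growth factor signalling, had the largest response. In Control-shRNA cultures its normalised abundance, in CPM (counts scaled to the library total, with TMM factors), was 39.4, 39.8, 51.3 and 45.1 in the baseline libraries and 291, 214, 217 and 237 in the bicuculline libraries. Every stimulated library held more than 4 times the abundance of the highest unstimulated one. The mean rose from 43.9 ± 5.59 to 240 ± 35.7 CPM (SD, n = 4), a 5.46-fold increase (log2 fold change 2.45, SE 0.12, edgeR adjusted p = 6.96e-11). In Dnmt3a1-shRNA cultures Spry2 stood at 39.5, 47.9, 47.2 and 36.1 CPM at baseline and at 277, 226, 212 and 235 CPM with bicuculline. The response was 5.57-fold there (log2 fold change 2.48, SE 0.12, edgeR adjusted p = 4.74e-11). Among all tested genes, the Spry2 response ranked 181st from the top in Control-shRNA and 213th in Dnmt3a1-shRNA cultures.

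Spry4 (ENSMUSG00000024427.7, chr18:38586247-38601415, minus strand), a Sprouty gene that likewise restrains signalling from receptors to ERK, had the next largest response. Its CPM in Control-shRNA cultures was 40.7, 29.45, 37.6 and 38.5 at baseline and 147, 128, 121 and 120.1 with bicuculline. This was a 3.53-fold rise (log2 fold change 1.82, SE 0.12, edgeR adjusted p = 2.87e-09). In Dnmt3a1-shRNA cultures the baseline libraries held 25.2, 32.2, 29.8 and 19.97 CPM and the bicuculline libraries 119.6, 108, 115 and 117 CPM. The rise there was 4.28-fold (log2 fold change 2.10, SE 0.13, edgeR adjusted p = 4.27e-10). The groups did not overlap with either hairpin. The gene overlaps 2 small RNA genes on the opposite strand, which had at most 1 count in a library.

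Spry1 (ENSMUSG00000037211.12, chr3:37639947-37644598, plus strand) is known as an antagonist of growth factor signalling in developing organs. It was the least abundant member, and it rose with bicuculline as well. Baseline Control-shRNA libraries held 9.38, 8.77, 8.34 and 8.50 CPM, and stimulated ones 20.03, 21.6, 18.1 and 19.0 CPM. The log2 fold change was 1.17 (SE 0.09, edgeR adjusted p = 9.37e-09), a 2.25-fold rise. With Dnmt3a1-shRNA its abundance went from 11.2, 12.2, 9.75 and 10.1 CPM to 22.7, 25.5, 21.2 and 22.2 CPM, a 2.12-fold rise (log2 fold change 1.08, SE 0.09, edgeR adjusted p = 1.52e-08). Here too every stimulated library exceeded every unstimulated one. Gm42922 overlaps 710 bases of Spry1 on the opposite strand and had 6 to 16 counts per library.

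Among the Spred genes, Spred2 (ENSMUSG00000045671.17, chr11:19924375-20024026, plus strand), a widely expressed inhibitor of Ras-ERK signalling, rose most. Its CPM in Control-shRNA cultures was 124, 110.2, 114 and 119 at baseline and 339, 253, 239.6 and 277 with bicuculline. The fold change of 2.38 (log2 1.25, SE 0.10, edgeR adjusted p = 1.67e-08) was also 2.38 in Dnmt3a1-shRNA cultures (log2 1.25, SE 0.10, edgeR adjusted p = 1.16e-08). Those cultures held 110.03, 115, 109 and 109 CPM at baseline and 294, 249, 227 and 285 CPM with bicuculline. Replicate 1 was the highest stimulated library for Spred2 with both hairpins, as it was for Spry2.

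Spred1 (ENSMUSG00000027351.14, chr2:117121374-117182279, plus strand), whose loss in humans causes Legius syndrome, showed a smaller rise. The Control-shRNA libraries stood at 87.3, 75.1, 84.0 and 81.5 CPM at baseline and at 135, 125, 129 and 122 CPM with bicuculline, with no overlap. This 1.56-fold change (log2 0.64, SE 0.06, edgeR adjusted p = 2.91e-07) exceeded the fold threshold by a small margin. With scaling to library size alone it was 0.48, and on log2(TPM + 1) it was 0.44, both below the threshold although their adjusted p-values stayed under 0.05. In Dnmt3a1-shRNA cultures Spred1 went from 91.5, 84.2, 101 and 93.4 CPM to 158, 157, 149.9 and 145 CPM, a 1.65-fold rise (log2 0.72, SE 0.06, edgeR adjusted p = 5.08e-08).

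Spred3 (ENSMUSG00000037239.8, chr7:29158829-29170411, minus strand), a Spred gene expressed mainly in brain, was the member whose bicuculline response did not pass the test. Control-shRNA libraries held 82.9, 68.5, 77.1 and 82.6 CPM at baseline and 109, 94.2, 86.2 and 75.0 CPM with bicuculline. These ranges overlapped, and the log2 fold change of 0.23 (95% confidence interval -0.01 to 0.47, edgeR adjusted p = 0.126) did not pass the test. The Dnmt3a1-shRNA libraries went from 47.7, 66.2, 62.2 and 47.4 CPM to 59.6, 63.6, 64.4 and 60.7 CPM, a log2 change of 0.15 (95% confidence interval -0.09 to 0.40, edgeR adjusted p = 0.315). Scaled to library size alone, this second value was -0.0031. The gene shares 202 bases on the opposite strand with Ggn, which had 58 to 104 counts per library, and whether the counting used strand is not stated.

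In Dnmt3a1-shRNA cultures the same 5 members were called higher after bicuculline, where 12.6% of all tested genes were called higher and 13.2% lower. The median of the 6 members was 1.17 on the log2 scale, against -0.01 over all tested genes. The 5 members again had no overlap between stimulated and unstimulated libraries, as did 40.4% of all tested genes. To test whether the hairpin altered the response, the difference between the 2 bicuculline responses was fitted. It ranged from -0.09 for Spry1 to 0.28 for Spry4, and no member passed the test (edgeR adjusted p = 0.99997 for each). For Spry4 the 95% confidence interval ran from -0.08 to 0.64, and for the other 5 members the intervals lay between -0.42 and 0.38. Differences within these bounds were not resolved by 4 libraries per group. Over all genes, edgeR called 0 differences (0%), with 852 at an unadjusted p under 0.05. By the same measure limma voom called 0 (858 unadjusted) and DESeq2 called 17 (918 unadjusted).

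**Figure D1:**
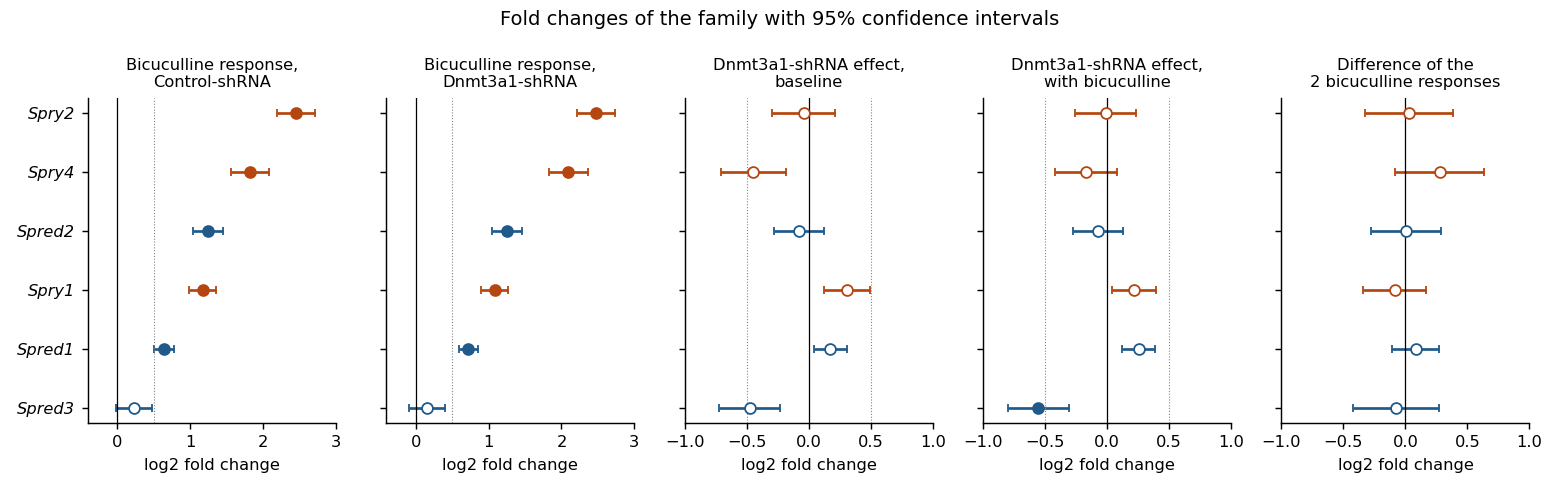
Log2 fold changes of the 6 members with 95% confidence intervals, for the bicuculline response and the Dnmt3a1-shRNA effect and for the difference of the 2 responses. Filled points were called, dotted lines mark the fold threshold of 0.5, and orange-brown points are Sprouty and blue points Spred genes. The bicuculline responses run from 0.15 to 2.48, whereas the Dnmt3a1-shRNA effects lie between -0.55 and 0.31.

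At baseline, 0 of the 6 members were called between hairpins. Spry2 and Spred2 did not pass the test, and their libraries overlapped between hairpins. Spred2 stood at 117 ± 5.89 CPM in Control-shRNA and at 111 ± 2.70 CPM in Dnmt3a1-shRNA libraries (SD, n = 4). Of all tested genes, 1.76% were called higher and 4.07% lower. Without reaching the fold threshold, 3 members passed the adjusted p alone, where 8.12% of all genes did so upward and 8.19% downward. Spred3 went from 77.8 ± 6.74 to 55.9 ± 9.76 CPM (SD, n = 4), that is to 71.9% of the control level (log2 fold change -0.48, SE 0.12, edgeR adjusted p = 0.00895). All 4 Dnmt3a1-shRNA libraries were below all 4 control libraries for Spred3. Spry4 went from 36.6 ± 4.92 to 26.8 ± 5.41 CPM, to 73.4% (log2 fold change -0.45, SE 0.12, edgeR adjusted p = 0.0192), with overlapping libraries. Spry1 moved the other way, from 8.74 ± 0.459 to 10.8 ± 1.09 CPM (log2 fold change 0.31, SE 0.09, edgeR adjusted p = 0.0237), with no overlap. This pass of Spry1 was lost in 9 of 26 alternatives. The adjusted p was 0.0929 with library size scaling (log2 fold change 0.23), 0.0586 with no filter on low counts, 0.0551 with only the 2 groups compared and 0.215 on log2(TPM + 1), where the log2 fold change was 0.17. It was 0.0616 to 0.0737 without replicate 1 or 2 of Dnmt3a1-shRNA baseline or without replicate 3 or 4 of Control-shRNA baseline. The absence of overlap held for 2 members, as for 19.9% of all tested genes.

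The Spred3 and Spry4 values at baseline sat close to the threshold and crossed it in the same 6 of 26 alternatives, but for Spry4 the adjusted p rose above 0.05 in 5 others. These were the fit with only the 2 groups compared (0.0558) and the fits without replicate 1 or 4 of either baseline group (0.0536 to 0.0639), among which the log2 fold change was weakest without Dnmt3a1-shRNA baseline replicate 4, at -0.33. Spred3 kept an adjusted p below 0.05 in all 26. Scaling to library size alone gave -0.55 for Spred3 and -0.52 for Spry4, and log2(TPM + 1) gave -0.60 and -0.54. Without Dnmt3a1-shRNA baseline replicate 2 they were -0.57 and -0.55, without Dnmt3a1-shRNA baseline replicate 3 -0.53 and -0.50, and without Control-shRNA baseline replicate 2 -0.53 and -0.54. Spred1 differed by 0.17 (SE 0.06, edgeR adjusted p = 0.0682, or 0.0219 with the replicate number as a block). Spry2 differed by -0.04 (95% confidence interval -0.29 to 0.21) and Spred2 by -0.08 (95% confidence interval -0.28 to 0.12).

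With bicuculline, Spred3 was the 1 member called between hairpins, and it was lower with Dnmt3a1-shRNA. It stood at 91.2 ± 14.4 CPM in Control-shRNA and at 62.1 ± 2.28 CPM in Dnmt3a1-shRNA libraries (SD, n = 4), or 68.1% (log2 fold change -0.55, SE 0.12, edgeR adjusted p = 0.00315). The libraries did not overlap. Without Control-shRNA bicuculline replicate 1, the highest library for Spred3, the log2 fold change was -0.46 and Spred3 was no longer called, although the adjusted p remained at 0.0106. Of all tested genes, 2% were called higher and 3.90% lower in this comparison. Spred1 passed the adjusted p alone, at 128 ± 5.68 CPM in Control-shRNA and 153 ± 6.36 CPM in Dnmt3a1-shRNA libraries (log2 fold change 0.26, SE 0.06, edgeR adjusted p = 0.00874). Spred1 did not pass with library size scaling (log2 fold change 0.19, adjusted p = 0.0536) or on log2(TPM + 1) (0.14, limma adjusted p = 0.326), and its libraries overlapped in TPM. By the edgeR adjusted p alone, 7.69% of all genes were higher and 9.99% lower. Spry4 lay below the control libraries in all 4 Dnmt3a1-shRNA libraries but did not pass (log2 fold change -0.17, SE 0.12, edgeR adjusted p = 0.353). Spry1, Spry2 and Spred2 overlapped between hairpins, with log2 fold changes of 0.22, -0.01 and -0.07. No overlap in CPM was seen for 3 members, as for 20.9% of all tested genes. The bicuculline and hairpin comparisons share libraries in pairs, so that their values are not independent of each other.

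**Figure D2:**
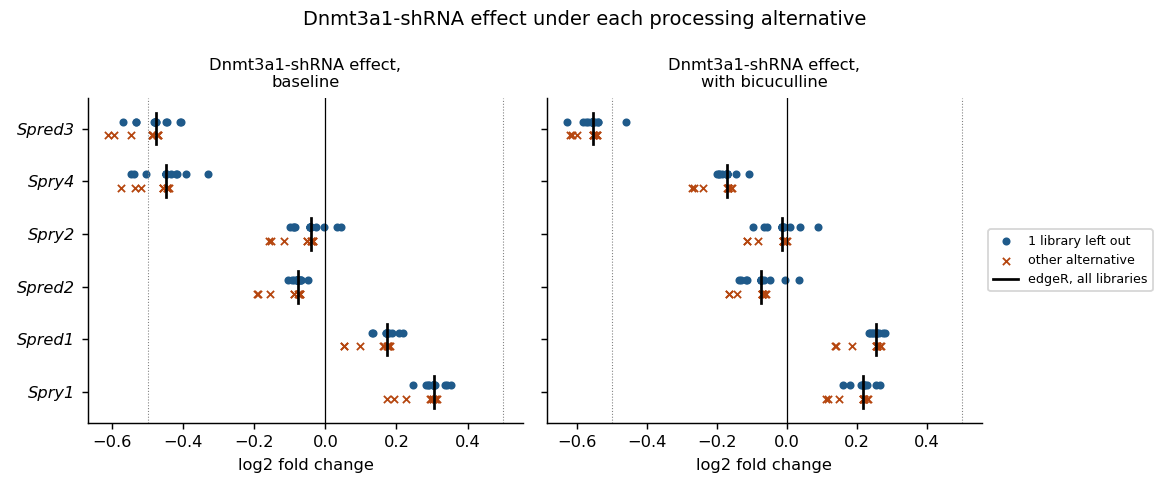
Log2 fold change of each member between Dnmt3a1-shRNA and Control-shRNA (horizontal axis), at baseline and with bicuculline, from all libraries (black bar), with 1 library left out (blue points) and under the other processing alternatives (crosses). The dotted lines mark the fold threshold of 0.5; Spred3 lies between -0.63 and -0.41 throughout, while Spry2 falls on both sides of 0.

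Some single markers of cell types were also called between hairpins, while the summed TPM of other cells overlapped at baseline. The 7 astrocyte markers had a median log2 fold change of 0.41 at baseline and of 0.43 with bicuculline in Dnmt3a1-shRNA against Control-shRNA cultures, with 1 of 7 called higher each time. Their summed TPM was 224 to 372 in Control-shRNA and 227 to 449 in Dnmt3a1-shRNA libraries at baseline, and 192 to 349 and 256 to 419 with bicuculline. The gene called was S100b, at 1.21 and 1.98 TPM at baseline. Slc1a2 went the other way in mean TPM, from 84.2 to 67.0 at baseline and from 67.5 to 58.3 with bicuculline. The other astrocyte markers had higher mean TPM with Dnmt3a1-shRNA. The 8 neuronal markers had medians of 0.04 and 0.03 but did not move together. Tubb3, a neuronal tubulin, was called higher at baseline, with 1235 ± 34.1 TPM in Control-shRNA and 1615 ± 89.0 TPM in Dnmt3a1-shRNA libraries (log2 fold change 0.51, edgeR adjusted p = 0.000952). Gad1, which makes GABA in inhibitory neurons, went from 582 to 406 TPM (log2 fold change -0.42, edgeR adjusted p = 0.0267, short of the fold threshold). Slc17a7, the vesicular glutamate transporter of excitatory neurons, stood at 846 and 689 TPM and did not pass (-0.18, edgeR adjusted p = 0.214). Fold changes and calls in this paragraph came from edgeR on TMM-scaled counts and need not match the ratios of the TPM means. A marker near the fold threshold can thus fall on its other side in TPM. The 6 microglial markers summed to 3.99 to 6.88 TPM in Control-shRNA and to 1.84 to 4.55 TPM in Dnmt3a1-shRNA libraries at baseline. Among them Csf1r was called lower with Dnmt3a1-shRNA at baseline (2.47 against 0.879 TPM) and with bicuculline (1.97 against 0.786 TPM). Oligodendrocyte lineage markers summed to 86.6 to 178 TPM in Control-shRNA and 81.8 to 177 TPM in Dnmt3a1-shRNA libraries at baseline, and markers of endothelium, pericytes and fibroblasts to 37.8 to 67.0 and 40.3 to 82.2 TPM. Most of each sum came from 1 gene. In Control-shRNA baseline libraries Olig1 had a mean of 97.3 TPM, while Pdgfra, Cspg4 and Sox10 were under 1 TPM. Dcn had 37.8 TPM there, while Pecam1, Pdgfrb, Cdh5 and Cldn5 were under 1 TPM. In the last list Pdgfrb was called higher at baseline (0.604 against 0.942 TPM) and Lum with bicuculline (1.95 against 2.89 TPM). Between bicuculline and baseline cultures, Gad1 and Gad2 were called higher and Tubb3 lower with both hairpins. Tubb3 went from 1235 to 629 TPM in Control-shRNA cultures. Astrocyte markers had a median log2 fold change of 0.31 with either hairpin and 0 of 7 called. Col1a2 was called higher and Mog lower with both hairpins, and Pdgfrb higher in Control-shRNA cultures. The part of these cell types in the bicuculline responses, and in the differences of Spred3, Spry4, Spry1 and Spred1, was not tested.

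Levels of different genes were compared as TPM, which are scaled to transcript length. In Control-shRNA baseline cultures the order was Spred2 with 62.2 ± 2.52 TPM, Spry2 with 48.3 ± 8.56, Spred3 with 43.1 ± 3.79, Spred1 with 29.4 ± 2.05, Spry4 with 16.6 ± 2.10 and Spry1 with 7.88 ± 0.201 (SD, n = 4). Spred2 and Spry2 overlapped in range, as did Spry2 and Spred3, whereas the lower neighbours did not overlap. After bicuculline Spry2 was on top with 227 ± 22.4 TPM, followed by Spred2 with 130 ± 15.3, and these no longer overlapped. Spry4 (50.8 ± 2.45 TPM), Spred3 (43.5 ± 5.10) and Spred1 (40.2 ± 1.64) came next, each overlapping its neighbour in range, and Spry1 (15.4 ± 1.12) remained last.

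The order in Dnmt3a1-shRNA cultures was alike at the top and bottom. At baseline Spred2 held 54.5 ± 4.60 TPM, Spry2 43.4 ± 8.01, Spred1 30.7 ± 4.46, Spred3 28.6 ± 6.42, Spry4 11.3 ± 2.65 and Spry1 9.04 ± 0.670. All of these neighbours overlapped except Spred3 and Spry4. With bicuculline the values were 209 ± 12.7 for Spry2, 115 ± 8.72 for Spred2, 44.4 ± 2.40 for Spred1, 42.1 ± 2.92 for Spry4, 28.4 ± 2.78 for Spred3 and 16.7 ± 1.21 for Spry1, and here only Spred1 and Spry4 overlapped. Spred3 thus held rank 3 at baseline and rank 4 with bicuculline in Control-shRNA cultures. With Dnmt3a1-shRNA it held rank 4 at baseline and rank 5 with bicuculline.

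The make-up of the family shifted with bicuculline. Sprouty transcripts made up 35.0% ± 1.89 of the summed Sprouty and Spred TPM in Control-shRNA baseline cultures and 57.8% ± 0.376 after bicuculline (SD, n = 4). With Dnmt3a1-shRNA the shares were 35.8% ± 2.24 and 58.7% ± 1.09. Within the Sprouty genes, Spry2 held 66.1% of TPM at baseline and 77.3% after bicuculline in Control-shRNA cultures. Within the Spred genes, the share of Spred2 went from 46.2% to 60.7% and that of Spred3 from 32.0% to 20.4%. In Dnmt3a1-shRNA cultures Spred3 held 25.0% at baseline and 15.1% with bicuculline. Summed over the 3 genes, Sprouty TPM went from 72.9 ± 9.70 to 293 ± 23.0 and Spred TPM from 135 ± 7.73 to 213 ± 16.5 in Control-shRNA cultures.

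**Figure D3:**
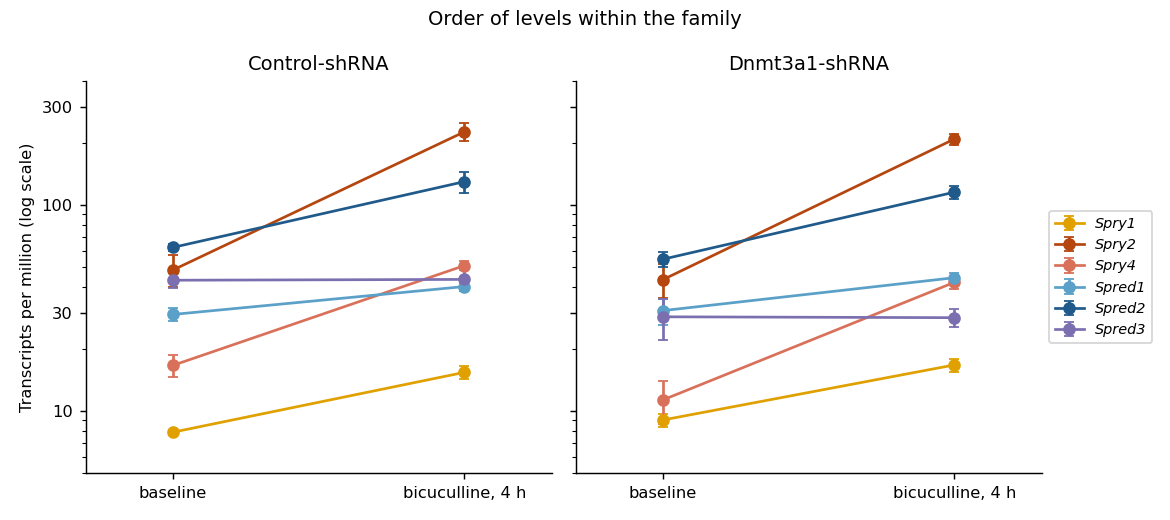
Mean TPM of each member (log axis) with SD (n = 4) at baseline and after 4 h of bicuculline, for both hairpins. Spry2 crosses Spred2 with stimulation and reaches 227 TPM in Control-shRNA cultures, and Spry1 is lowest in each group. Mean Spred3 TPM is 43.1 and 43.5 in Control-shRNA cultures, where the edgeR fit gave a log2 fold change of 0.23 that did not pass.

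Genes of the same pathway were described beside the family, with these shares of all tested genes for comparison. With bicuculline 10.8% were called higher and 11.1% lower in Control-shRNA, and 12.6% and 13.2% in Dnmt3a1-shRNA cultures. Between hairpins 1.76% were called higher and 4.07% lower at baseline, and 2% and 3.90% with bicuculline. The first group held the signals that reach the receptors. Of 24 tested receptor tyrosine kinase ligands (30 listed), 12 were called higher and 4 lower with bicuculline in Control-shRNA cultures, and 13 and 3 in Dnmt3a1-shRNA cultures. Their median log2 fold changes were 0.51 and 0.73. Bdnf, a neurotrophin released by active neurons, rose from 78.2 ± 19.7 to 453 ± 92.4 CPM in Control-shRNA cultures (log2 fold change 2.53, edgeR adjusted p = 8.33e-09). The epidermal growth factor receptor ligand Areg rose by 2.70 on the log2 scale, though it stayed at 1.67 ± 0.222 CPM. Ntf3, the neurotrophin of the receptor TrkC, fell by 1.12 and Fgf18 fell by 0.997 on the log2 scale, and the neuregulin gene Nrg2 fell by 0.67. In Dnmt3a1-shRNA cultures the log2 fold change was 2.91 for Bdnf, 2.40 for Areg, -1.26 for Ntf3, -1.15 for Fgf18 and -0.64 for Tgfa, a further ligand of the epidermal growth factor receptor. Tgfa was called lower in Control-shRNA cultures as well. Between hairpins 1 of the 24 ligands was called higher and 1 lower at baseline. These were Hbegf, also a ligand of that receptor, with a log2 fold change of 0.73, and Bdnf with -0.74. With bicuculline 2 were higher, Nrg1 (0.60) and Hbegf (0.55), and 2 were lower, Fgf16 (-0.90) and Areg (-0.82). Fgf16 kept its call in 9 of 25 alternatives, Areg in 19 of 25 and Hbegf with bicuculline in 22 of 26.

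Of 17 tested receptors (19 listed), 5 were called higher and 1 lower with bicuculline in Control-shRNA cultures, and 5 and 0 in Dnmt3a1-shRNA cultures. The shares over all tested genes were 10.8% higher and 11.1% lower, and 12.6% and 13.2%. Fgfr2, a fibroblast growth factor receptor, rose from 18.1 ± 1.60 to 102 ± 14.0 CPM (log2 fold change 2.49, edgeR adjusted p = 3.06e-12), and Fgfr1, of the same family, from 137 ± 6.34 to 364 ± 50 CPM (log2 fold change 1.41, edgeR adjusted p = 8.63e-09). Erbb3, a neuregulin receptor, rose by 2.06 on the log2 scale but reached only 0.444 CPM, and the vascular endothelial growth factor receptor Kdr fell by 1.08. With Dnmt3a1-shRNA the log2 fold changes of Fgfr2, Erbb3 and Fgfr1 were 2.50, 1.58 and 1.56. Between hairpins 3 receptors were called higher and 1 lower at baseline, and 2 and 0 with bicuculline. Fgfr2 differed by 0.55 at baseline and by 0.56 with bicuculline, and the insulin-like growth factor receptor Igf1r by 0.51 and 0.73. The remaining calls were Pdgfrb (0.75), a receptor of pericytes and fibroblasts, and Kdr (-1.05), both at baseline. Pdgfrb was not called on either TPM scale, and Kdr, Igf1r with bicuculline and Erbb3 were not called on log2(TPM + 1), where the differences were -0.32 for Kdr, 0.51 for Igf1r (limma adjusted p = 0.0507) and 0.13 for the response of Erbb3 in Control-shRNA cultures. Igf1r at baseline kept its call in 19 of 26 alternatives and Fgfr2 in 23 of 26. Without Control-shRNA bicuculline replicate 1, Fgfr2 with bicuculline was at 0.48 and not called, and the same held with library size scaling.

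The next group held proteins that bind or modify Sprouty and Spred or work beside them at the receptor. All 22 were tested. In Control-shRNA cultures 2 rose and 1 fell with bicuculline, and in Dnmt3a1-shRNA cultures 3 and 1 did. Over all tested genes, 10.8% were called higher and 11.1% lower in Control-shRNA, and 12.6% and 13.2% in Dnmt3a1-shRNA cultures. Siah2, a ubiquitin ligase that targets Sprouty proteins for degradation, rose from 23.6 ± 1.23 to 105 ± 8.0 CPM (log2 fold change 2.16, edgeR adjusted p = 1.26e-12), and by 2.21 with Dnmt3a1-shRNA. Dyrk1a, a kinase that phosphorylates Spry2, rose by 0.61 and 0.71, but on log2(TPM + 1) these were 0.29 and 0.41, both below the threshold, as was the first with library size scaling (0.45). Frs3, an adaptor of fibroblast growth factor receptors, had log2 fold changes of -0.57 and -0.87, the first of which lost its call without Control-shRNA bicuculline replicate 1. The adaptor Shc3 rose by 0.58 in Dnmt3a1-shRNA cultures, but it was not called with library size scaling (0.43) or on log2(TPM + 1) (0.31, limma adjusted p = 0.0784). Between hairpins Siah1a, a relative of Siah2, was lower at baseline (log2 fold change -0.57, edgeR adjusted p = 6.10e-05), the 1 gene called of the 22. With bicuculline Gab1, a docking protein, was higher (0.63, and 0.50 and not called without Control-shRNA bicuculline replicate 1) and Mknk1, a kinase downstream of ERK, was lower (-0.50), the latter keeping its call in 16 of 26 alternatives. Gab1 was also not called on either TPM scale.

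In the Ras-ERK cascade itself, bicuculline led to 4 higher and 3 lower calls among 20 genes in Control-shRNA cultures, and to 5 and 3 in Dnmt3a1-shRNA cultures. Among all tested genes 10.8% were called higher and 11.1% lower in Control-shRNA, and 12.6% and 13.2% in Dnmt3a1-shRNA cultures. The medians of the cascade genes, 0.01 and -0.05, were near those of all genes. The Ras relative Rras2 rose by 1.10 and 1.18 and the ERK-activated kinase Rps6ka3 by 0.82 and 0.98 on the log2 scale. Rps6ka2, a kinase of the same family, rose by 0.92 in Control-shRNA and the small GTPase Rap1b by 0.82 in Dnmt3a1-shRNA cultures. Both genes were called higher with either hairpin. Nras, one of the Ras genes, fell by 0.68 and 0.54, and the scaffolds Ksr1 and Ksr2 fell by 0.65 and 0.56 in Control-shRNA and by 0.74 and 0.67 in Dnmt3a1-shRNA cultures. Without Control-shRNA baseline replicate 4, Ksr2 in Control-shRNA cultures was at -0.497 and not called. Nras was the 1 gene of the cascade called between hairpins. It was higher with Dnmt3a1-shRNA, at 81.8 ± 2.71 against 54.5 ± 2.63 CPM at baseline (log2 fold change 0.59, edgeR adjusted p = 2.88e-05) and 56.2 ± 2.86 against 34.1 ± 3.93 CPM with bicuculline (log2 fold change 0.72, edgeR adjusted p = 3.25e-06). On log2(TPM + 1) the baseline value of Nras was 0.49 and just below the threshold.

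The last group held genes listed as ERK-induced and other feedback inhibitors. ERK activity was not measured in these cultures. In Control-shRNA cultures 13 of these 20 rose and 1 fell with bicuculline, and in Dnmt3a1-shRNA cultures 12 and 2 did. Of all tested genes, 10.8% were called higher and 11.1% lower in Control-shRNA, and 12.6% and 13.2% in Dnmt3a1-shRNA cultures. The medians of the group were 1.05 and 1.07, against 0.01 and -0.01 over all tested genes. Besides Fos, the transcription factor Egr1 rose by 4.61 and 4.72 and the AP-1 member Fosl1 by 4.17 and 4.42 on the log2 scale. Il17rd, an inhibitor of fibroblast growth factor signalling also named Sef, fell by 1.08 and 0.98, and the ETS factor Etv1 fell by 0.65 in Dnmt3a1-shRNA cultures. Between hairpins 1 of the 20 was called higher and 1 lower at baseline, and 0 and 1 with bicuculline. Fos differed by 0.58 at baseline (edgeR adjusted p = 0.0437, with overlapping libraries), a call kept in 9 of 26 alternatives, and the early response gene Ier3 by -0.71 at baseline and -0.60 with bicuculline, keeping its call in 20 of 26 alternatives each time.

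**Figure D4:**
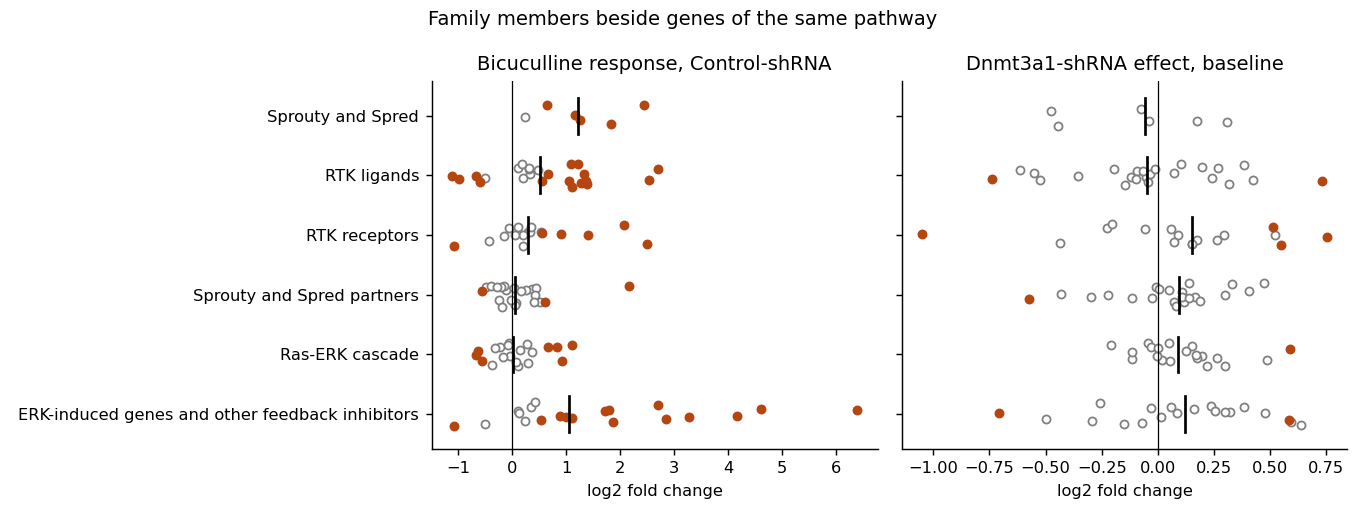
Log2 fold change (horizontal axis) of each tested gene in the family and in the 5 pathway groups, for the bicuculline response in Control-shRNA and for the Dnmt3a1-shRNA effect at baseline; the horizontal scales differ. Filled points were called and black bars are medians. For bicuculline these are 1.21 for the family, 1.05 for genes listed as ERK-induced or as other feedback inhibitors, and 0.01 for the Ras-ERK cascade.

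To find genes with a similar pattern, log2 CPM was centred on its mean for each gene and the root-mean-square (RMS) difference over the 16 libraries was taken. For Spry2 the nearest of the tested genes were Plk2 (0.118), Fosl2 (0.151) and Rgs2 (0.175), which encode an activity-induced kinase, an AP-1 factor and a regulator of G protein signalling. For Spry4 they were Gla (0.198), Slc16a1 (0.200) and Brinp1 (0.209), and Slc35d1 (0.116) and the synaptic adhesion gene Lrrtm1 (0.118) were among the nearest to Spry1. The nearest to Spred1 were the kinase Csnk1a1 (0.0759), Calu (0.0785) and Spcs3 (0.0805), and to Spred2 the phosphatase subunit gene Ppp1r15b (0.0703), Zswim4 (0.0917) and Zfp954 (0.0974). Spred3 was nearest to the lysosomal enzyme gene Hexa (0.135), Mrm1 (0.143) and Mydgf (0.146). Within the family, Spry1 and Spred2 were closest (0.228), followed by Spry1 and Spred1 (0.261) and by Spry2 and Spry4 (0.322), and Spry2 and Spred3 were farthest apart (1.17). The points of these comparisons share libraries and depth, and members with fold changes of similar size are near each other by construction.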

How the data were processed

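The authors trimmed the reads with Trim Galore 0.6.4, quantified them with kallisto (version 0.4.6 per the labels) against GRCm38.p6, and deposited, for each of the 16 libraries, estimated counts and TPM per Ensembl gene. Both were used as deposited. Versioned identifiers were matched to symbols, with 241 of 55385 unmatched. Estimated counts were rounded and entered edgeR (version 4.0.16, R 4.3.3; TMM scaling, filterByExpr, quasi-likelihood test, 1 model over the 4 groups, Benjamini-Hochberg adjustment over 17222 genes), checked on simulated data. Calls needed an adjusted p below 0.05 and an absolute log2 fold change above 0.5, and the difference of responses the adjusted p alone. The study's own test, limma voom, was an alternative, as were DESeq2 1.42.0, other scalings and filters, TPM on a log2 scale with pseudocounts of 1 and 0.1, a replicate block, and each library left out. The members and gene lists were chosen with earlier results of these data known. Text names the members, Dnmt3a, Arc, Fos and Npas4, the 3 most changed called genes per pathway group, comparison and direction, and the 3 nearest patterns per called member. Some genes that this rule names are not reported here. The labels do not say that a replicate number marks a shared preparation; in the data, same-numbered libraries deviated together from their group means in all 4 pairs for the bicuculline response in Control-shRNA (r 0.142 to 0.221) and for the baseline hairpin effect (0.204 to 0.355). Promoter windows and gene positions came from RefSeq and GENCODE M21. Precision rests on 4 libraries per group and similar depths.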

Additional observations from a re-analysis of the deposited data

How the results depend on the processing

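The number of members called with bicuculline was 5 with either hairpin, and it stayed within 1.5 times that count under each alternative run. Spred1 in Control-shRNA cultures lost its call under scaling to library size alone and on both TPM scales. For the hairpin effect at baseline, 0 members were called, but 2 with scaling to library size alone, 2 on log2(TPM + 1), 2 on log2(TPM + 0.1), and 3 with no fold threshold; leaving out 1 library gave 0 to 2. With bicuculline 1 member was called, 2 with no fold threshold, 0 with a fold threshold of 1, and 0 to 1 with a library left out. These scalings moved the median of all genes: with library size alone it was -0.15 for bicuculline in Control-shRNA, -0.16 in Dnmt3a1-shRNA, and -0.07 and -0.08 for the hairpin effects, and the share of calls that were higher went from 49.2% to 31.0%, from 48.9% to 32.8%, from 30.2% to 14.2% and from 33.9% to 19.2%. On log2(TPM + 0.1) the median was -0.19 and the share 27.9% for bicuculline in Control-shRNA.

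Signs turned for small values. The hairpin effect on Spry2 with bicuculline was 0.0017 with DESeq2 size factors, and the bicuculline response of Spred3 in Dnmt3a1-shRNA was -0.0031 with library size alone. With 1 library left out, the hairpin effect on Spry2 ranged from -0.099 to 0.044 at baseline and from -0.096 to 0.090 with bicuculline, that on Spred2 with bicuculline from -0.14 to 0.035, and the difference of responses from -0.057 to 0.13 for Spry2, from -0.059 to 0.11 for Spred2 and from -0.15 to 0.019 for Spred3. The causes were not tested. With the replicate block, 5, 5, 0 and 1 members were called in the 4 comparisons, and no call of a named gene changed; over all genes it called 3 differences of response, as did the fit with no filter on low counts. In the other 2 comparisons 3 of 4 pairs correlated above 0.1. Their r ran from 0.0631 to 0.337 for the bicuculline response in Dnmt3a1-shRNA and from 0.0667 to 0.388 for the hairpin effect with bicuculline. With the block, Spry1 had an edgeR adjusted p of 0.00888 between hairpins with bicuculline.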
